A study of Mus musculus with 94 samples.

Results

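Ccl3, Ccl4, Ccl6 and Ccl9 are 4 CC chemokine genes, taken by name from the 46078 mouse gene identifiers of the deposited count table, with 36 other chemokine genes and 23 chemokine receptor genes beside them. They were followed through single basophils that had been index-sorted from marrow of 3 female C57BL/6 mice. Both sort gates took live cells negative for lineage markers and Sca1 and positive for FcεRI, the high-affinity IgE receptor. The CD34-negative and CD34-positive gates held 47 cells each and differed in surface CD34, which blood progenitors carry. The labels name no treatment and no altered allele in either gate. The labels do not tie a cell to a mouse, so each gate is 1 sample, cells are not replicates, and no test between the gates was made.

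Chemokines are small secreted proteins that guide leukocytes through G protein-coupled receptors. Ccl3 and Ccl4, also called macrophage inflammatory proteins 1 alpha and 1 beta, are released by activated myeloid and lymphoid cells. Ccl3 binds the receptor Ccr1. Ccl6 and Ccl9 are rodent CC chemokines of myeloid cells that signal through Ccr1. Basophils are granulocytes that release histamine, proteases, Il4 and chemokines when IgE on their surface is crosslinked.

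The 4 genes lie in a single stretch of chromosome 11 (GRCm38 coordinates, GENCODE M21 annotation). Ccl9 (ENSMUSG00000019122) spans 83572919 to 83578636 on the minus strand, Ccl6 (ENSMUSG00000018927) spans 83587882 to 83593087 on the minus strand, and 9245 bases with no annotated gene separate them. Ccl3 (ENSMUSG00000000982) spans 83647844 to 83649355 on the minus strand, 54756 bases from Ccl6. Ccl4 (ENSMUSG00000018930) spans 83662584 to 83664683 on the plus strand, 13228 bases from Ccl3. Over aligned coding sequence Ccl3 and Ccl4 were 68.1% identical, Ccl6 and Ccl9 were 64.6% identical, and the other 4 pairs ranged from 46.9% to 50.6%. The most alike 50 coding bases of each pair are shown 5′ to 3′ because the reads were 50 bases long, so they show how well a read could be told apart between partners; capitals mark the bases that differ, at coding bases 148 to 197 of Ccl3, 151 to 200 of Ccl4, 195 to 244 of Ccl6 and 216 to 265 of Ccl9.
Ccl3: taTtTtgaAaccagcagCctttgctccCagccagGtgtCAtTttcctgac
Ccl4: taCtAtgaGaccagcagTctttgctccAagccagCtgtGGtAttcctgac
Ccl6: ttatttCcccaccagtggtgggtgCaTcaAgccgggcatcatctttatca
Ccl9: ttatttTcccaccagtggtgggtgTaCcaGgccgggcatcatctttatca
Even there Ccl3 and Ccl4 differed at 9 bases and Ccl6 and Ccl9 at 4. Of all 50-base windows of their annotated transcripts, 0 of 717 for Ccl3, 0 of 611 for Ccl4 and 0 of 1743 for Ccl6 also occurred in a transcript of another gene. For Ccl9 this held for 59 of 2996 windows (1.97%). E230016K23Rik, a noncoding gene on the opposite strand, overlaps Ccl6 without sharing an exon base and had 384 reads over the CD34-negative cells and 58 over the CD34-positive ones.

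The 250 bases before the annotated start of Ccl6 and Ccl9 are shown because these neighbours had the highest CPM of the 4 in the CD34-negative gate and yet, as described below, were often found in different cells. The sequences are RefSeq's for GRCm38.p6, read 5′ to 3′ on the minus strand, and capitals mark the longest run that both hold. It is 13 bases long and begins 55 bases before the start of Ccl6 and 14 bases before the start of Ccl9.
Ccl6, chr11:83593088-83593337: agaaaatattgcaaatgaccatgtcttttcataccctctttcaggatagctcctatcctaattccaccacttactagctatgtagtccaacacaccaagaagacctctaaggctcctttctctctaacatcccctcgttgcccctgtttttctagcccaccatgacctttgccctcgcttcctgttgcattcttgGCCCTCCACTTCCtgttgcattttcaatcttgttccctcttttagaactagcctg
Ccl9, chr11:83578637-83578886: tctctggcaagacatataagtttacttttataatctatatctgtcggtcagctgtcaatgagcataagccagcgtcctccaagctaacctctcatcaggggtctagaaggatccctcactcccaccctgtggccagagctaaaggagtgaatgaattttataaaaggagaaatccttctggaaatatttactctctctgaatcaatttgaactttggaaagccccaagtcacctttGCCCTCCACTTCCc
Ccl3 shares no run longer than 8 bases with either. Motifs were searched on both strands. The NF-kappaB type core GGNNTTNCC occurred at 35 bases and the AP-1 site TGANTCA at 53 bases before the start of Ccl9. TATAAA began at 224, 94 and 92 bases before the Ccl9 start, the last 2 overlapping. None of these, nor the C/EBP type TTGCNNAA or the GATA type AGATAA, was in the Ccl3 or Ccl6 window. Among 32851 RefSeq promoters of the same length GGNNTTNCC was in 13.5%, TGANTCA in 6.75%, TTGCNNAA in 9.56%, AGATAA in 9.99% and TATAAA in 12.4%. A match is only a description of the sequence.

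Gene reads, the reads assigned to mouse genes, ranged from 262944 to 938322 per kept cell in the CD34-negative gate and from 374011 to 1154738 in the CD34-positive gate, with 46 kept cells in each. At 200000 gene reads per cell the median number of genes with a read was 4527 for CD34-negative and 6522.5 for CD34-positive cells, and gene reads per ERCC spike-in read had medians of 6.87 and 14.4. Of 10 basophil markers, 91 of the 92 kept cells had at least 5 at 50 CPM (counts per 1e6 gene reads) or more. CD34-negative cell 10 went against its label. It had 1 of the 10 basophil markers at that level (Prss34, 118 CPM), 8 CPM of Fcer1a, 4 CPM of Gata2 and 0 reads of Hdc. It also had 7 of 10 monocyte and macrophage markers, among them Csf1r at 966 CPM and Cd68 at 517 CPM. The next highest cells had 3. Its chemokine levels were 4 CPM of Ccl3, 0 of Ccl4, 616 of Ccl6 and 262 of Ccl9. Results below include it, and values without it are given for the levels, shares, pairs, closest genes and gene lists of the CD34-negative gate.

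In the CD34-negative gate, Ccl3, Ccl6 and Ccl9 were abundant and Ccl4 much less so, and all 4 were lower in the CD34-positive gate. Together they made up 0.902% of gene reads in CD34-negative and 0.0932% in CD34-positive cells. Per cell, their summed level ran from 151 CPM (cell 31) through a median of 9203 to 22913 CPM (cell 45) among CD34-negative cells. Among CD34-positive cells it ran from 0 (cell 32) through a median of 158 to 7352 CPM (cell 46). The ranges overlapped: 25 CD34-positive cells lay at or above the lowest CD34-negative cell. None of the 46 CD34-positive cells reached the CD34-negative median, and 1 CD34-negative cell lay at or below the CD34-positive median.

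Ccl3 had 0 reads in 2 CD34-negative cells, a median of 935 CPM and a highest value of 2834 CPM in cell 35. Of the CD34-positive cells 12 had 0 reads, the median was 4.80 CPM and the highest value was 2851 CPM in cell 39. The highest cells of the gates were thus level, while the medians stood far apart, and 3 of 46 CD34-positive cells reached the CD34-negative median. Summed over its cells, the CD34-negative gate had 1145 CPM of Ccl3 (95% Poisson interval 1133 to 1156) and the CD34-positive gate 192.3 CPM (187 to 197). On the log2(CPM + 1) scale the CD34-positive gate was lower by 2.57, giving a log2 fold of -2.57 (counting interval -2.62 to -2.52). Cell 39 held 25.5% of the CD34-positive reads, and without it the log2 fold was -2.96.

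Ccl4 was the least abundant of the 4. It had 0 reads in 8 CD34-negative cells, a median of 85.9 CPM (107 without cell 10) and a highest value of 1274 CPM in cell 14. No read was found in 34 of 46 CD34-positive cells, so the median was 0, and the highest value was 380 CPM in cell 46. The CD34-positive gate therefore held Ccl4 in a few cells: the top 3 carried 71.2% of its reads and cell 46 alone 42.3%. The summed levels were 240.3 CPM (235 to 246) and 22.1 CPM (20.5 to 23.9), a log2 fold of -3.38 (-3.52 to -3.25). Without cell 46 it was -4.10.

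Ccl6 had the highest CPM in the CD34-negative gate and the largest log2 fold between the gates. CD34-negative cells ran from 0 reads in cell 32 through a median of 2996 CPM to 14289 CPM in cell 23. CD34-positive cells had no read in 10 cases, a median of 4.79 CPM and a highest value of 4080 CPM in the cell numbered 23 there. It was close to on or off in the CD34-negative gate, where 28 cells stood at 1000 CPM or more, 10 below 10 CPM, and 8 between. Of the CD34-positive cells 33 stood below 10 CPM and 2 at 1000 CPM or more, and 1 cell reached the CD34-negative median. The summed levels were 4223 CPM (4201 to 4245) and 191.8 CPM (187 to 197), a log2 fold of -4.45 (-4.50 to -4.41). CD34-positive cells 23, 46 and 37 carried 85.1% of that gate's Ccl6 reads, and without cell 23 the log2 fold was -5.34.

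Ccl9 had at least 1 read in all 46 CD34-negative cells, from 1.69 CPM through a median of 2672 to 16593 CPM in cell 37. Like Ccl6 it was split there, with 31 cells at 1000 CPM or more and 6 below 10 CPM. Among CD34-positive cells it was at 0 in 3, with a median of 30.7 CPM and a highest value of 4664 CPM in the cell numbered 37 there. The gates overlapped more than for Ccl6: 18 CD34-positive cells had 100 CPM or more, against 38 CD34-negative cells. The summed levels were 3409 CPM (3390 to 3429) and 526.0 CPM (518 to 534), a log2 fold of -2.69 (-2.72 to -2.66). Without CD34-positive cell 37 it was -2.99.

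All 4 genes were thus lower in the CD34-positive gate by at least 1 on the log2 scale, as were 10.1% of the 12460 genes that had a read in 10 or more kept cells; 21.7% were higher by as much. From the lowest log2 fold upwards Ccl6 was 9th, Ccl4 36th, Ccl9 77th and Ccl3 87th of the 12460, whose median log2 fold was 0.19. Without CD34-negative cell 10 the log2 folds were -2.58 for Ccl3, -3.40 for Ccl4, -4.46 for Ccl6 and -2.70 for Ccl9, and the CD34-negative medians were 939, 107, 3236 and 2707 CPM in that order. Scaled by ERCC reads in place of gene reads, they were -1.60, -2.44, -3.49 and -1.73 in the same order, and the all-gene median then lay at 1.04. A scaling of whole gates moves all genes nearly alike, so the standing of the 4 relative to the all-gene median could hardly change with it.

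**Figure D1:**
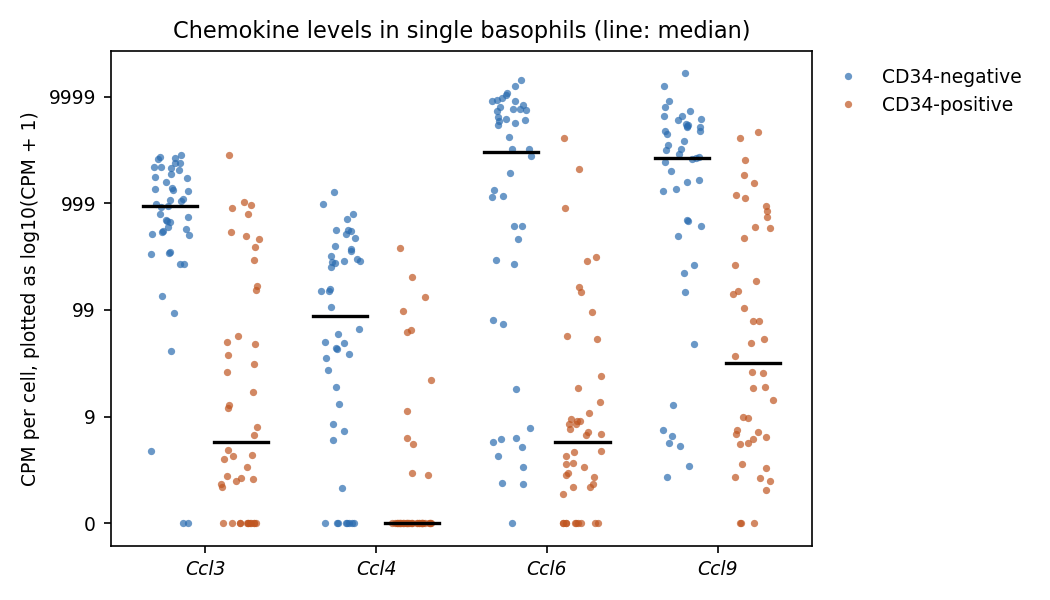
Each point is 1 cell, 46 for each gate; the vertical axis is CPM of gene reads, plotted as log10(CPM + 1), and black lines are medians. The CD34-negative medians are 935, 85.9, 2996 and 2672 CPM for Ccl3, Ccl4, Ccl6 and Ccl9. The CD34-positive medians are 4.80, 0, 4.79 and 30.7 CPM. In CD34-negative cells Ccl6, and with fewer low cells Ccl9, falls largely into a high and a low set.

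Compared per length of the coding transcript, the order of levels was Ccl6, Ccl3, Ccl9 and Ccl4 in the CD34-negative gate, at 2933, 1494, 1134 and 364 CPM per kb. It was Ccl3, Ccl9, Ccl6 and Ccl4 in the CD34-positive gate, at 251, 175, 133 and 33.5 CPM per kb. Ccl3 was the most even from cell to cell in the CD34-negative gate: its mean per-cell level was 1116 ± 850 CPM (SD over 46 cells), against 229 ± 291 for Ccl4, 4110 ± 4189 for Ccl6 and 3427 ± 3517 for Ccl9. By CPM, Ccl6 was the highest of the 4 in 22 CD34-negative cells, Ccl9 in 19 and Ccl3 in 5. Of the CD34-positive cells, Ccl9 alone was highest in 24, Ccl3 in 10, Ccl6 in 7 and Ccl4 in 1, while 3 cells had ties and 1 had no read of any.

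At an equal depth of 200000 drawn gene reads, the share of cells with at least 10 reads was lower in the CD34-positive gate for all 4. The exact Clopper-Pearson 95% intervals given with the shares cover the counting of cells within a gate and do not test the gates against each other. At least 10 reads, a level of 50 CPM, were found for Ccl3 in 43 of 46 CD34-negative cells (93.5%, 82.1% to 98.6%) and in 12 of 46 CD34-positive cells (26.1%, 14.3% to 41.1%). Ccl4 passed it in 27 (58.7%, 43.2% to 73.0%) and in 6 (13.04%, 4.94% to 26.3%). Ccl6 passed it in 35 (76.1%, 61.2% to 87.4%) and in 10 (21.7%, 10.9% to 36.4%). Ccl9 passed it in 38 (82.6%, 68.6% to 92.2%) and in 22 (47.8%, 32.9% to 63.1%). Without CD34-negative cell 10 the CD34-negative shares were 95.6%, 60%, 75.6% and 82.2% in that order.

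With at least 1 drawn read as the limit the shares came closer together for Ccl3, Ccl6 and Ccl9 and moved further apart for Ccl4. Ccl3 then had a read in 44 and 27 cells of the CD34-negative and CD34-positive gates, Ccl4 in 36 and 11, and Ccl6 in 42 and 26. Ccl9 had a read in 43 (93.5%, 82.1% to 98.6%) and in 38 (82.6%, 68.6% to 92.2%). In undrawn counts, cells with a read numbered 44 and 34 for Ccl3, 38 and 12 for Ccl4, 45 and 36 for Ccl6, and 46 and 43 for Ccl9. Levels of a few CPM are hard to read: CD34-negative cell 10, with hardly any basophil transcripts, still had 12 reads of Mcpt8 (46 CPM) and 31 of Prss34. The source of such traces was not tested. The following uses the limit of 10 reads, which need not clear them all: Prss34 in cell 10 stood at 118 CPM.

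At 10 drawn reads, Ccl3 and Ccl4 marked nested sets of cells in the CD34-negative gate. All 27 cells with Ccl4 also had Ccl3, another 16 had Ccl3 without Ccl4, and 3 had neither (2 without cell 10). The nesting depends on the limit: cell 46, counted as having neither, held 34 reads of Ccl4 (48.2 CPM in undrawn counts) and 0 of Ccl3, and at 1 drawn read 1 cell had Ccl4 alone. With Ccl3 in nearly every cell this nesting was bound to be high: Ccl3 was also in 84.2% of the 19 cells without Ccl4. Cell 27 was the clearest split, with 2073 CPM of Ccl3 and 0 reads of Ccl4 among 781986 gene reads. Cells 44, 8, 6 and 5 likewise had 0 reads of Ccl4 beside 1323, 691, 683 and 539 CPM of Ccl3. Of the CD34-positive cells 4 had both, 8 had Ccl3 alone, 2 had Ccl4 alone and 32 had neither. There 66.7% of the 6 Ccl4 cells and 20.0% of the 40 other cells had Ccl3.

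Ccl6 and Ccl9 did not mark the same cells in either gate. In the CD34-negative gate 29 cells had both (28 without cell 10), 6 had Ccl6 alone, 9 had Ccl9 alone and 2 had neither. Ccl9 was as common among the 35 cells with Ccl6 (82.9%, 66.4% to 93.4%) as among the 11 without it (81.8%, 48.2% to 97.7%). Cells 9, 4, 11, 13 and 39 had 3249 to 10281 CPM of Ccl6 and no more than 47 CPM of Ccl9. Cells 29, 27, 47, 34, 44 and 7 had 1578 to 6589 CPM of Ccl9 and no more than 6.80 CPM of Ccl6. Of the CD34-positive cells 3 had both, 7 Ccl6 alone, 19 Ccl9 alone and 17 neither. Ccl9 was in 30% of the 10 cells with Ccl6 and in 52.8% of the 36 without it (6.67% to 65.2% and 35.5% to 69.6%). CD34-positive cell 23 had 4080 CPM of Ccl6 and 9.00 CPM of Ccl9, while cell 33 had 2559 CPM of Ccl9 and 0 reads of Ccl6.

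Rank correlations across cells gave the same order and are descriptions, since the points share a plate, a depth range and CPM totals. Spearman's rho of Ccl3 and Ccl4 was 0.35 across 46 CD34-negative cells (Pearson's r 0.39) and 0.48 across 46 CD34-positive cells (r 0.53). For Ccl6 and Ccl9 it was 0.13 (r 0.09) and 0.05 (r 0.05). The pair across the families, Ccl4 and Ccl6, had 0.41 and 0.37. The other pairs had 0.18 and 0.27 (Ccl3 and Ccl6), 0.03 and 0.26 (Ccl3 and Ccl9), and 0.20 and 0.36 (Ccl4 and Ccl9). Without cell 10, Ccl3 and Ccl4 had 0.32 and Ccl6 and Ccl9 had 0.12 in the CD34-negative gate. Ccl6 was in 85.2% of the 27 CD34-negative cells with Ccl4 and in 63.2% of the 19 without (61.1% of 18 without cell 10).

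**Figure D2:**
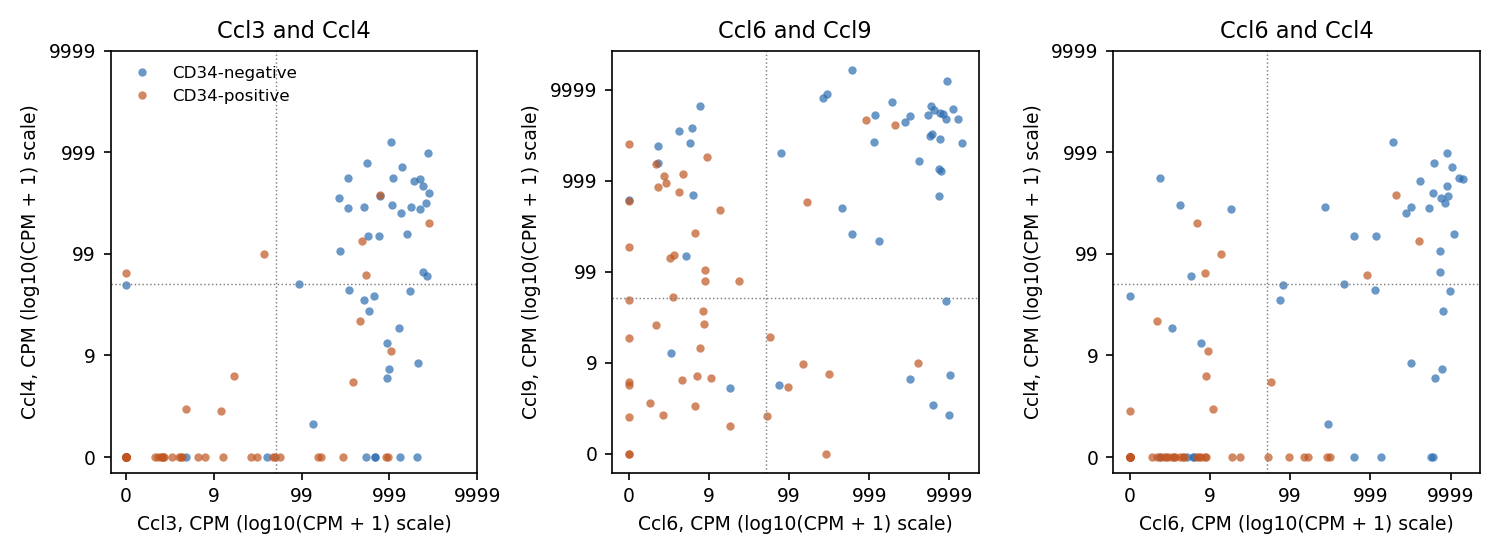
Each point is 1 cell (46 for each gate), with CPM of 1 chemokine on each axis on the log10(CPM + 1) scale; dotted lines stand at 50 CPM. At those lines 25 CD34-negative cells have both Ccl3 and Ccl4 and 0 have Ccl4 alone, while Ccl6 and Ccl9 fill all 4 corners.

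Taking the 4 together, 18 CD34-negative cells (39.1%) had all of them, 17 had 3, 9 had 2, and cells 26 and 31 had 1. Every CD34-negative cell had at least 1. None was found in 15 CD34-positive cells (32.6%), 18 had 1, 9 had 2, 2 had 3 and 2 had all 4. Ccl9 was the only one of the 4 in 12 of those 18 cells, and Ccl6 in 4. Cells 37 and 46 were the CD34-positive cells with all 4. Cell 46 had 791 CPM of Ccl3, 380 of Ccl4, 2102 of Ccl6 and 4080 of Ccl9, and cell 37 had 540.5, 60.5, 905 and 4664 CPM.

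**Figure D3:**
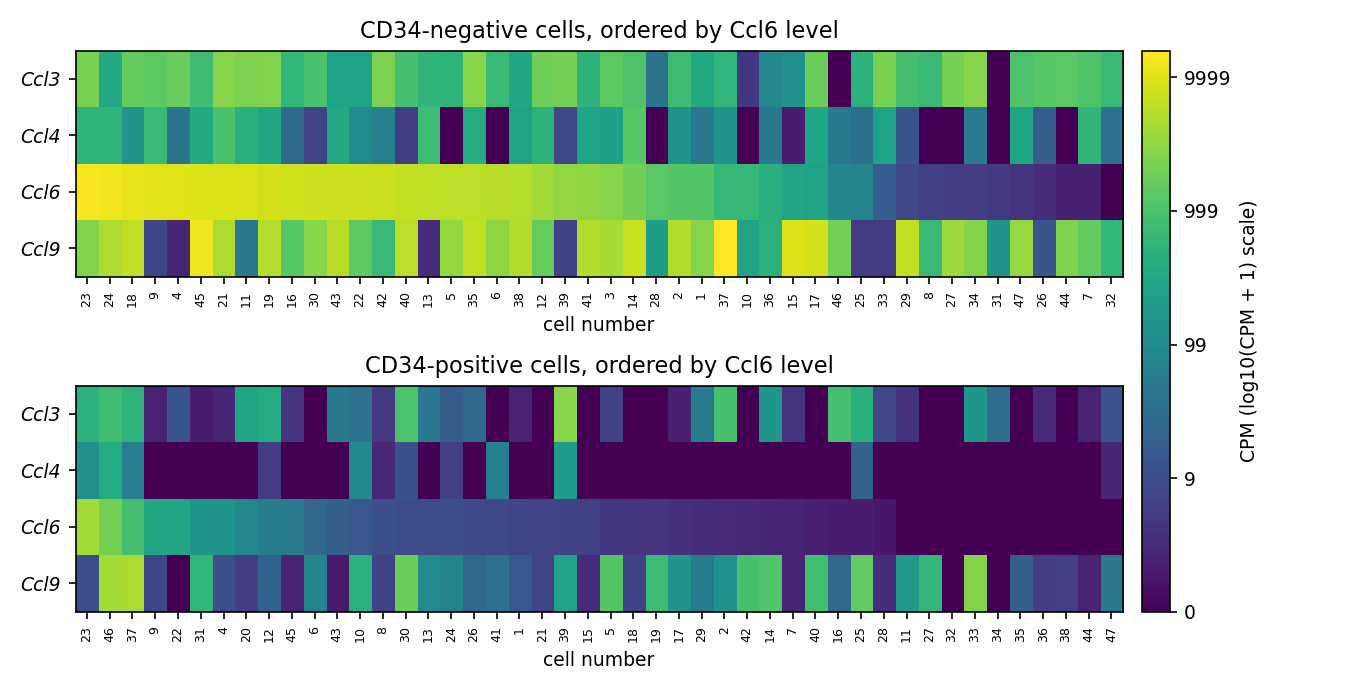
Each column is 1 cell, in order of its Ccl6 level, and colour is CPM on the log10(CPM + 1) scale, with the CD34-negative gate above and the CD34-positive gate below. Ccl9 is bright in columns on both sides of the Ccl6 order, such as CD34-negative cells 29, 27 and 47, and only CD34-positive cells 37 and 46 pass 50 CPM for all 4.

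The genes whose levels followed each chemokine most closely were ranked by the mean of the within-gate rho among 9591 genes. For Ccl3 they were ENSMUSG00000089672 (no symbol in the name tables; mean rho 0.54), the synaptotagmin-like gene Sytl3 (0.49), Gm49339 (0.46), Fxyd5, a regulator of the sodium pump (0.44), and the focal adhesion gene Zyx (0.43). For Ccl4 they were Cd7, an immunoglobulin-family surface protein of T and NK cells (0.52), the complement C3a receptor C3ar1 (0.50), the small GTPase gene Arl4c (0.50), the signalling adaptor Lat2 (0.48) and Tmem71 (0.48). For Ccl6, Cd7 again came first (0.51), followed by the adaptor Tyrobp (0.41), Grina (0.40), Ccl4 itself (0.39) and ENSMUSG00000089672 (0.39). For Ccl9 they were Tmem71 (0.47), Txnip, which binds thioredoxin (0.45), the CXC chemokine receptor Cxcr2 (0.43), the nonmuscle myosin gene Myh9 (0.40) and the nuclear exporter Xpo6 (0.40). The median over all genes lay between -0.07 and -0.04 for each of the 4. In these orders Ccl4 was 10th for Ccl3 and 4th for Ccl6, whereas Ccl9 was 1068th for Ccl6 and Ccl6 was 1591st for Ccl9. Without CD34-negative cell 10, 5, 4, 5 and 4 of the top 5 genes for Ccl3, Ccl4, Ccl6 and Ccl9 were the same.

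Within the CD34-negative gate, Ccl6 and Ccl4 were high in cells with little Prss34 and Mcpt8, a pair of basophil protease genes. Ccl6 had a rho of -0.70 with Prss34, -0.63 with Mcpt8 and 0.67 with Cd7 (-0.73, -0.66 and 0.67 without cell 10). Ccl4 had -0.57, -0.54 and 0.60 with the same genes (-0.63, -0.61 and 0.59 without it). Ccl3 had -0.25, -0.29 and 0.34, and Ccl9 had -0.36, -0.27 and 0.37; without cell 10 these were -0.30, -0.35 and 0.30, and -0.40, -0.30 and 0.35. Cpa3, the carboxypeptidase gene of the list, was less closely related: its rho was -0.04, -0.09, -0.28 and -0.26 with Ccl3, Ccl4, Ccl6 and Ccl9. With the granule genes of early myeloid cells, Ctsg and Mpo, Ccl6 had -0.55 and -0.45 (-0.55 and -0.46 without cell 10). Prss34 itself had summed levels of 24143 and 62565 CPM in the CD34-negative and CD34-positive gates, and Mcpt8 of 8049 and 21224 CPM. Of the 13 genes of the maturation list 12 had enough CD34-negative cells. Ccl3, Ccl4, Ccl6 and Ccl9 were positively related to 5, 3, 4 and 6 of them and negatively to 7, 9, 8 and 6, with median rho of -0.03, -0.09, -0.20 and -0.11. Over 9591 genes in this gate, 65.5%, 68.9%, 69.6% and 63.9% were negatively related to the 4, so these counts do not set the list apart. The summed list, 45084 CPM with Prss34 as its largest part, had rho of -0.23, -0.52, -0.66 and -0.37, or -0.31, -0.61, -0.70 and -0.42 without cell 10. The number of genes found at 200000 reads moved with the same cells: its rho was -0.37, -0.54, -0.53 and -0.29 with Ccl3, Ccl4, Ccl6 and Ccl9, and that of gene reads per ERCC read was -0.29, -0.35, -0.49 and -0.29. Their part in these relations was not tested.

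Within the CD34-positive gate some of these relations were alike and others differed in sign. Ccl4 and Ccl6 again had positive rho with Cd7, 0.43 and 0.34, although only 8 cells there had a read of it. Ccl3 was high where the basophil genes were: its rho was 0.67 with Cd200r3, an activating receptor of basophils and mast cells, 0.50 with the transcription factor gene Gata2 and 0.42 with Prss34. It was -0.50 with Mpo and -0.49 with Kit, the stem cell factor receptor. Of the 10 basophil markers 9, 7, 5 and 6 were positively related to Ccl3, Ccl4, Ccl6 and Ccl9. Over 9591 genes in this gate, 65.1%, 52.3%, 59.7% and 53.2% were negatively related to Ccl3, Ccl4, Ccl6 and Ccl9. Ccl9 had -0.66 with Mpo, -0.57 with Ctsg and 0.36 with Gata2, but also -0.36 with Cpa3 and -0.26 with Mcpt8. Ccl4 had 0.46 with Cd200r3 and -0.49 with Ctsg, but also -0.25 with Cpa3 and -0.205 with Mcpt8. Ccl6 had no rho beyond 0.34 in size with any gene of the maturation list. Of the 13 genes of that list 9, 6, 4 and 5 were positively related to Ccl3, Ccl4, Ccl6 and Ccl9. Negatively related were 4, 7, 9 and 8. The number of genes at 200000 reads had rho of -0.45, -0.08, -0.31 and -0.17 with the 4, and its part was not tested. The sign of the Ccl3 and Prss34 relation differed between the gates (-0.25 and 0.42), and that difference was not tested.

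**Figure D4:**
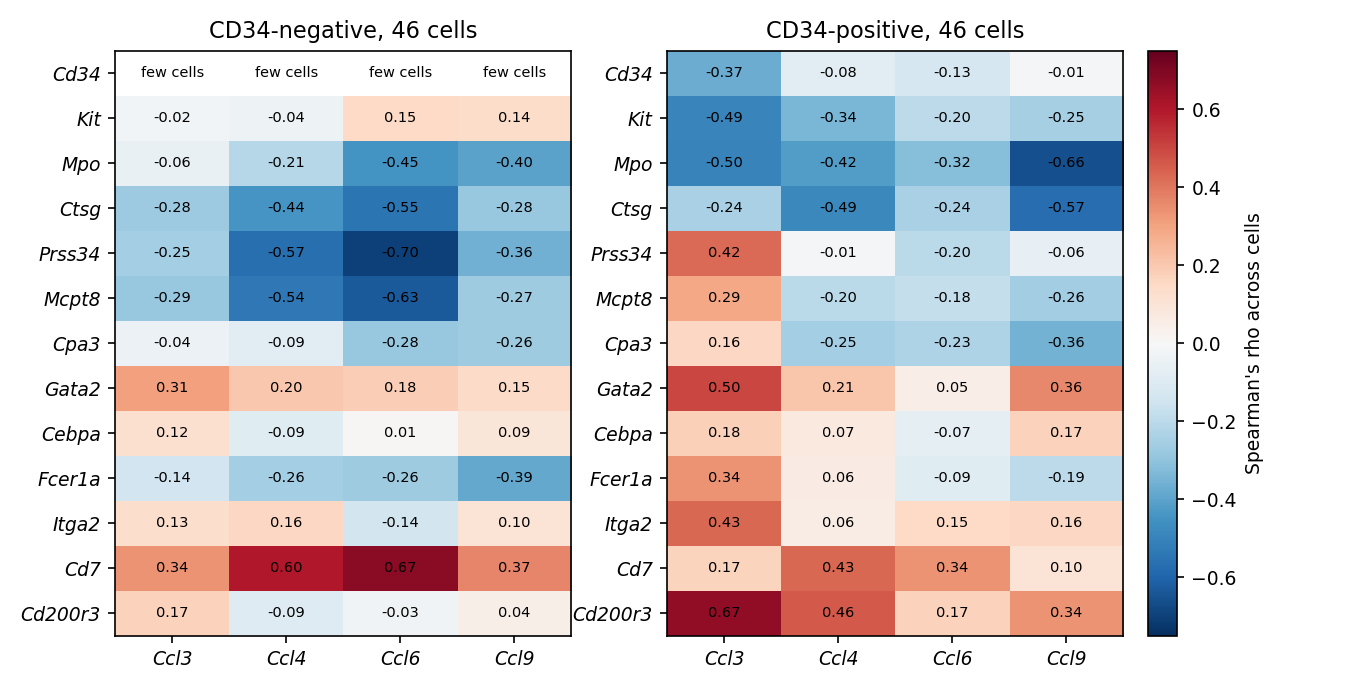
Spearman's rho across 46 cells of each gate between the CPM of each chemokine (columns) and each gene of the maturation list (rows); red is positive and blue negative, and Cd34 had reads in too few CD34-negative cells. The strongest values are -0.70 for Ccl6 with Prss34 and 0.67 for Ccl6 with Cd7 in CD34-negative cells, and 0.67 for Ccl3 with Cd200r3 and -0.66 for Ccl9 with Mpo in CD34-positive cells.

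Immediate-early genes are the first to respond when a cell is stimulated or handled. In the CD34-negative gate 13 of the 15 listed had enough cells, and 10, 11, 10 and 9 of them were positively related to Ccl3, Ccl4, Ccl6 and Ccl9, with median rho of 0.18, 0.17, 0.16 and 0.03. Over 9591 genes in this gate 34.5%, 31.1%, 30.4% and 36.1% were positively related to the 4, with medians of -0.07, -0.08, -0.09 and -0.06. Fosb and Jun, both parts of AP-1, had the highest values with Ccl4, 0.57 and 0.53, and had 0.47 and 0.36 with Ccl3 and 0.01 and 0.01 with Ccl9. Other members lay near 0 with Ccl4, such as Ier3 (-0.02), Btg2 (-0.01) and Klf6 (0.05). The summed list had 0.45, 0.40, 0.27 and -0.01 with Ccl3, Ccl4, Ccl6 and Ccl9 (0.47, 0.42, 0.27 and -0.01 without cell 10), and amounted to 1703 and 607 CPM in the CD34-negative and CD34-positive gates. Across CD34-positive cells the sum had 0.16, 0.25, 0.30 and 0.09. Differences between the chemokines in these values were not tested.

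The NF-kappaB feedback genes are subunits, inhibitors and targets of that pathway. Of 10 with enough CD34-negative cells 7, 8, 5 and 5 were positively related to Ccl3, Ccl4, Ccl6 and Ccl9, with median rho of 0.08, 0.07, -0.003 and 0.007, beside the shares and medians over all genes just given. Their sum had 0.21, 0.39, 0.27 and 0.14 (0.28, 0.47, 0.29 and 0.19 without cell 10). Of the basophil cytokine genes 5 had enough CD34-negative cells, and 4, 3, 3 and 3 were positively related to the chemokines in that order, with medians of 0.06, 0.08, 0.11 and 0.06. Their sum had 0.24, 0.45, 0.49 and 0.04 (0.19, 0.42, 0.48 and 0.01 without cell 10). Csf1, the macrophage growth factor gene, made up 1097 of its 1592 CPM, with rho of 0.45 with Ccl4 and 0.40 with Ccl6. Il4 had 0.39 with Ccl9 and -0.03 with Ccl6. Of 7 proliferation genes with enough CD34-negative cells 2 were positively related to Ccl3 and none to Ccl4, Ccl6 or Ccl9, with medians of -0.15, -0.19, -0.28 and -0.20. Among them Birc5, Mcm2 and Mcm5 had reads in only 5, 6 and 9 cells. The sum of the whole list had 0.05, -0.09, -0.19 and -0.15 (-0.007, -0.15, -0.22 and -0.19 without cell 10). As given above, 63.9% to 69.6% of all genes had a negative rho with these chemokines there. Among CD34-positive cells 6, 4, 5 and 2 of 10 proliferation genes were positively related to them, where 52.3% to 65.1% of all genes were negatively related.

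Markers of other cells were looked at beside these levels. The 10 monocyte and macrophage markers summed to 0 to 3841 CPM per cell in the CD34-negative gate and 0 to 1077 in the CD34-positive gate; none was at 0 in a whole gate. Ccr2, which basophils also carry, made up most of the CD34-negative sum (493 of 687 CPM). Outside cell 10 the sum had rho of 0.22, 0.33, 0.33 and 0.03 with Ccl3, Ccl4, Ccl6 and Ccl9. The 8 NK and T cell markers summed to 0 to 950 CPM per CD34-negative and 0 to 2026 per CD34-positive cell. CD34-negative cells had no read of Ncr1, Cd3g and Gzma, and CD34-positive cells had reads of Nkg7 only. Nkg7, a granule protein gene of cytotoxic cells, stood at 78.6 CPM over the former (25 cells with a read) and 696 CPM over the latter (45 cells), where its rho was -0.32 with Ccl3 and -0.39 with Ccl9. The 8 neutrophil markers summed to 0 to 2165 and 0 to 1777 CPM per cell. S100a8, Ltf, Camp and Ly6g were at 0 over the CD34-negative cells, and Ltf, Camp, Ngp and Ly6g over the CD34-positive ones. Cxcr2 made up nearly all of both sums, at 720 and 131 CPM with reads in 42 and 30 cells. Its rho in CD34-negative cells was 0.07, 0.33, 0.33 and 0.47 with Ccl3, Ccl4, Ccl6 and Ccl9. The 6 eosinophil markers summed to 0 to 1099 and 0 to 1496 CPM per cell. Epx, Prg2, Ear1 and Ear6 were at 0 over the CD34-negative cells, and Ear1 and Ear6 over the CD34-positive ones. Siglecf, a sialic acid-binding surface lectin, had 76.5 and 60.3 CPM in 21 and 23 cells and a rho of 0.34 with Ccl6 in CD34-negative cells. Prg2, the major basic protein gene, had 1443 reads in 4 CD34-positive cells. The 6 mast cell markers summed to at most 1.43 and 285 CPM per cell, with 5 and 2 of them at 0 reads. What such cells or transcripts contribute to the chemokine levels was not tested beyond leaving out cell 10.

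Among all 40 chemokine ligand genes in the table, these 4 stood almost alone. They made up 99.9% of chemokine CPM in the CD34-negative gate (9028 CPM in all) and 98.6% in the CD34-positive gate (945 CPM). The other 36 summed to 10.6 CPM (6.72 without cell 10) and 13.02 CPM, and 23 of them had 0 reads in every kept cell. Ccl25, a thymus and gut chemokine, had 3.98 and 6.33 CPM and was the only other one with reads in at least 10 cells. Ccl5, which lies in the same cluster on chromosome 11, had 160 reads in 2 CD34-negative cells and none elsewhere; cell 10 held 494 CPM of it. Ccl27a had 0 and 94 reads. With 1 exception, Ccl25 at a log2 fold of 0.56, the tested ligands were thus the 4 members.

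Among receptors that bind these chemokines, Ccr1 was present in most cells of both gates, and Ccr3, Ccr1l1 and Ackr2 were scarce or uneven. Ccr1 had a median of 616 CPM per CD34-negative and 381 CPM per CD34-positive cell, summed levels of 808 and 420 CPM, and a log2 fold of -0.94. At least 10 drawn reads of it were in 44 and 36 of 46 cells. Ccr3, the eotaxin receptor of eosinophils and basophils, had summed levels of 97.9 and 4.70 CPM (log2 fold -4.12) and passed 10 drawn reads in 16 and 2 cells. Ccr1l1 had 3.23 and 5.33 CPM, and the scavenging receptor Ackr2 had 1 read in all. Of the 3 with reads in at least 10 cells (Ccr1, Ccr3 and Ccr1l1), 1 was lower in the CD34-positive gate by at least 1 and none was higher. Over all 12460 genes with as many cells, 10.1% were lower and 21.7% higher by as much.

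Of 18 other chemokine receptor genes 5 had reads in at least 10 cells. Ccr2 (493 and 40.5 CPM) and Cxcr2 (720 and 131 CPM) were lower in the CD34-positive gate by at least 1 on the log2 scale. Cxcr4, the receptor that holds cells in the marrow (67.5 and 136 CPM), and Cx3cr1 (0.12 and 11.1 CPM) were higher by at least 1, Cxcr4 barely so at 1.00. Cxcr6 lay between, at -0.57. Of these 5 receptors 2 were thus lower and 2 higher, beside 10.1% lower and 21.7% higher over all 12460 genes. No difference from these shares was tested. The 4 chemokines were all lower, but they were chosen with earlier results of these data known.

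**Figure D5:**
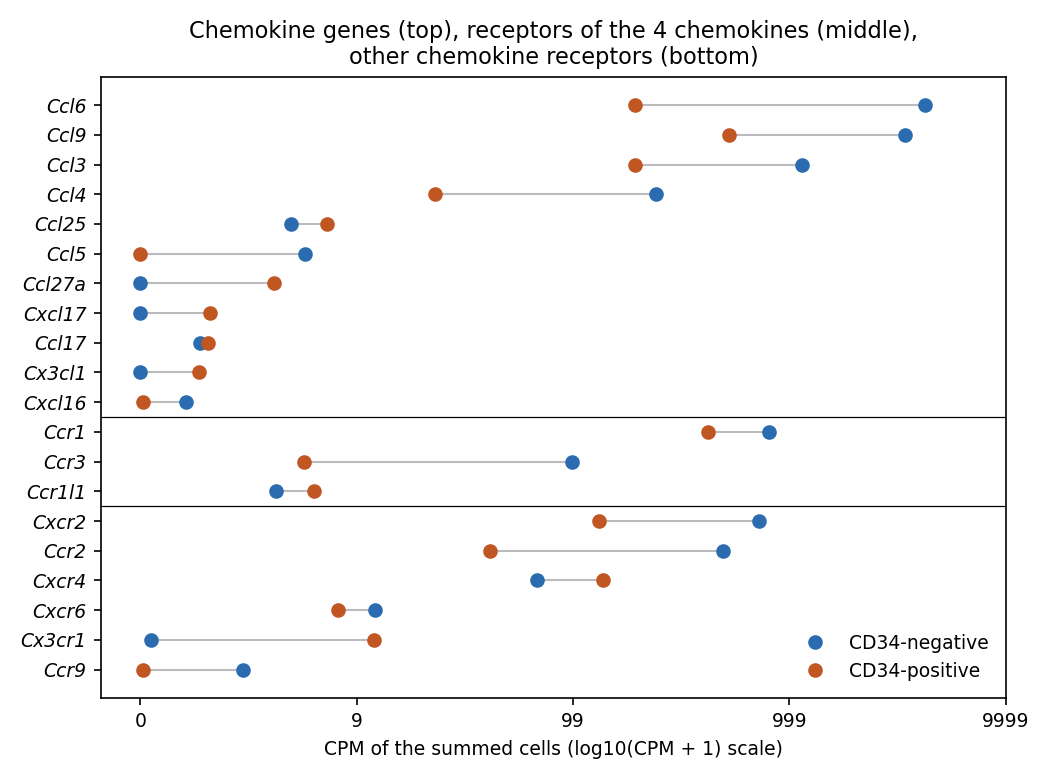
CPM of the summed cells of each gate on the log10(CPM + 1) scale for the 20 chemokine and receptor genes with more than 20 reads over both gates, a line joining the gates. Ccl6, Ccl9, Ccl3 and Ccl4 lie far to the right of every other ligand, and each has its CD34-positive point to the left of its CD34-negative point; Cxcr4 and Cx3cr1 point the other way.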

How the data were processed

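Polyadenylated RNA of 94 single basophils was amplified by a Smart-seq2-type protocol with 19 PCR cycles; the labels' protocols give single-end reads of 50 bp. The authors deposited whole read counts per gene and cell, not normalized. GSNAP, HTSeq 0.5.3p3 and mm10 are named in the submitters' processing notes; annotation and strand setting are not given in the sources used here. Of all reads, 32.4% were gene reads, 3.97% ERCC, 7.68% ambiguous, 33.0% in no feature and 22.9% not aligned; only gene reads entered library sizes.

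The cell filter asked for at least 50000 gene reads, 1000 genes, under 20% mitochondrial and under 50% ERCC reads, which left out CD34-negative cell 20 and CD34-positive cell 3. As wells held single sorted cells, doublets were not called and cells not clustered. Symbols matched 45143 of 46078 identifiers. Counts were summed per gate as CPM; log2 folds used a pseudocount of 1 CPM. Poisson and Clopper-Pearson intervals are 95%. The Poisson intervals cover the counting of reads only and not of molecules, since reads carry no molecular identifiers. The Clopper-Pearson intervals cover the counting of cells only. Fold intervals set opposite bounds against each other. Shares used 200000 drawn reads per cell. Correlations used CPM. Closest genes were the top 5 by mean within-gate rho among genes found in 20 or more kept cells and 5 or more of each gate. The maturation, immediate-early, NF-kappaB feedback, cytokine, proliferation and marker lists were set with the members. Members, lists and rules were chosen with earlier results of these data known; leaving out CD34-negative cell 10 was added after seeing the data. Calculations were checked on simulated data. Alternatives were other scalings, filters, depths, pseudocounts, correlations and single cells left out. The tools were R 4.3.3, edgeR 4.0.16 (TMM factors only), Biopython 1.88, pandas 2.3.3, scipy 1.17.1, numpy 2.4.6, matplotlib 3.10.9 and Python 3.11.15. Some genes of the receptor and marker lists are not reported here.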

Additional observations from a re-analysis of the deposited data

Results flagged for a closer look

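CD34-negative cell 20, left out by the cell filter for its 24565 gene reads and used only in the alternatives without that filter, held chemokine reads above the limit of 3 that a count of 0 allows: 147 of Ccl3, 40 of Ccl9 and 4 of Ccl6. In CPM these are 5984, 1628 and 163, and Ccl3 there is above the 2834 CPM of the highest kept CD34-negative cell, at a much lower depth. Ccl4 had 2 reads. CD34-positive cell 3, also left out, had 2, 0, 2 and 3 reads of Ccl3, Ccl4, Ccl6 and Ccl9 among 31504.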

How the results depend on the processing

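All 52 alternative log2 folds stayed negative, and 32 of them lay outside the counting interval of the main value. In the order Ccl3, Ccl4, Ccl6 and Ccl9 they were -2.78, -3.59, -4.66 and -2.90 with TMM factors, -2.76, -3.57, -4.64 and -2.88 with median-of-ratios size factors, -1.60, -2.44, -3.49 and -1.73 with ERCC scaling, and -2.51, -3.22, -4.36 and -2.58 without the cell with most reads of the gene. With a pseudocount of 10 CPM Ccl3, Ccl4 and Ccl6 had -2.51, -2.96 and -4.39. In cells numbered 7 to 42 they had -2.65, -4.01 and -4.67. As the mean of per-cell CPM Ccl3 had -2.45 and Ccl9 -2.81. Leaving out each cell in turn gave -2.96 to -2.51 for Ccl3, -4.10 to -3.22 for Ccl4, -5.34 to -4.36 for Ccl6 and -2.99 to -2.58 for Ccl9. At least 10 drawn reads in place of 1 moved the difference in share, CD34-positive minus CD34-negative, from -36.96 to -67.4 percentage points for Ccl3, from -34.8 to -54.3 for Ccl6 and from -10.9 to -34.8 for Ccl9, and narrowed it from -54.3 to -45.7 for Ccl4. Counted per ERCC read, rho in CD34-negative cells was 0.24 for Ccl3 with Ccl4 and -0.026 for Ccl6 with Ccl9. In CD34-positive cells with a read of both genes it was 0.74 for Ccl3 with Ccl4 (11 cells) and -0.081 for Ccl6 with Ccl9 (35 cells), and leaving out each cell gave -0.011 to 0.10 for the latter. Except by construction (fewer cells, another limit), the cause was not tested. Counts of lower ligands and receptors stayed within 1.5 times. The 2 left-out cells were too shallow for a drawn share without the filter. No paired analysis was possible because a title's number is only the name of a cell.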
